A study of Saccharomyces cerevisiae with 12 samples.

Results

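Transcripts of 10 genes for the use of proline, arginine and 4-aminobutyrate (GABA) as nitrogen sources were followed in 2 yeast strains at 2 temperatures. The genes were chosen by symbol, with earlier results of these data known, so their counts beside the shares of all genes are descriptive. They are the proline genes PUT1, PUT2, PUT3 and PUT4, the arginine genes CAR1 and CAR2, and the GABA genes UGA1, UGA2, UGA3 and UGA4. All 10 were found among the 5449 genes measured, each with 1 probe set, and none was at the lower limit of the scale on any array. The groups were the industrial wine strain EC1118 at 15 °C and at 30 °C, and the laboratory strain CEN.PK113-7D at 15 °C and at 30 °C, with 3 biological replicates each. EC1118 is known as a diploid and CEN.PK113-7D as a haploid of mating type a, so strain, ploidy and mating type cannot be told apart here. Every culture of both strains was an anaerobic, nitrogen-limited chemostat at steady state in minimal medium with the supplements that yeast needs without oxygen. The dilution rate, which sets the growth rate, was 0.05 per h in all of them.

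Budding yeast takes up proline, arginine and GABA from its surroundings and also stores arginine in the vacuole. Arginine is split to urea and ornithine, and proline is oxidised to glutamate in mitochondria. The first step of proline oxidation there passes electrons to the respiratory chain, and yeast is known not to use proline as a nitrogen source without oxygen. GABA passes its amino group to 2-oxoglutarate and its carbon to succinate. Many of these genes are under nitrogen catabolite repression, in which GATA factors raise their transcription when good nitrogen sources are scarce, and PUT3 and UGA3 encode activators that act on the PUT and UGA genes.

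Each culture gave 1 Affymetrix Yeast Genome 2.0 array, and values are the linear intensities that the authors deposited. The median intensity of an array was 329 to 353 at 15 °C and 356 to 371 at 30 °C. Precision is limited by the 3 arrays in a group. The a-specific receptor gene STE2 read 67.5 to 92.9 in EC1118 and 2810 to 4421 in CEN.PK113-7D, with no overlap between the strains. A replicate number marks separate cultures, and nothing in the labels ties equal numbers in different groups to a shared batch. At 15 °C, however, equally numbered arrays of EC1118 and CEN.PK113-7D deviated together from their group means (r = 0.478, 0.321 and 0.393 for replicates 1, 2 and 3, across all genes). The arrays numbered 3 had the lowest mean correlation with their own groups at 15 °C, 0.985 in EC1118 and 0.978 in CEN.PK113-7D. Where leaving out both arrays changed a call of a gene described here, the value without them is given too, an omission chosen after seeing the data.

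**Figure D1:**
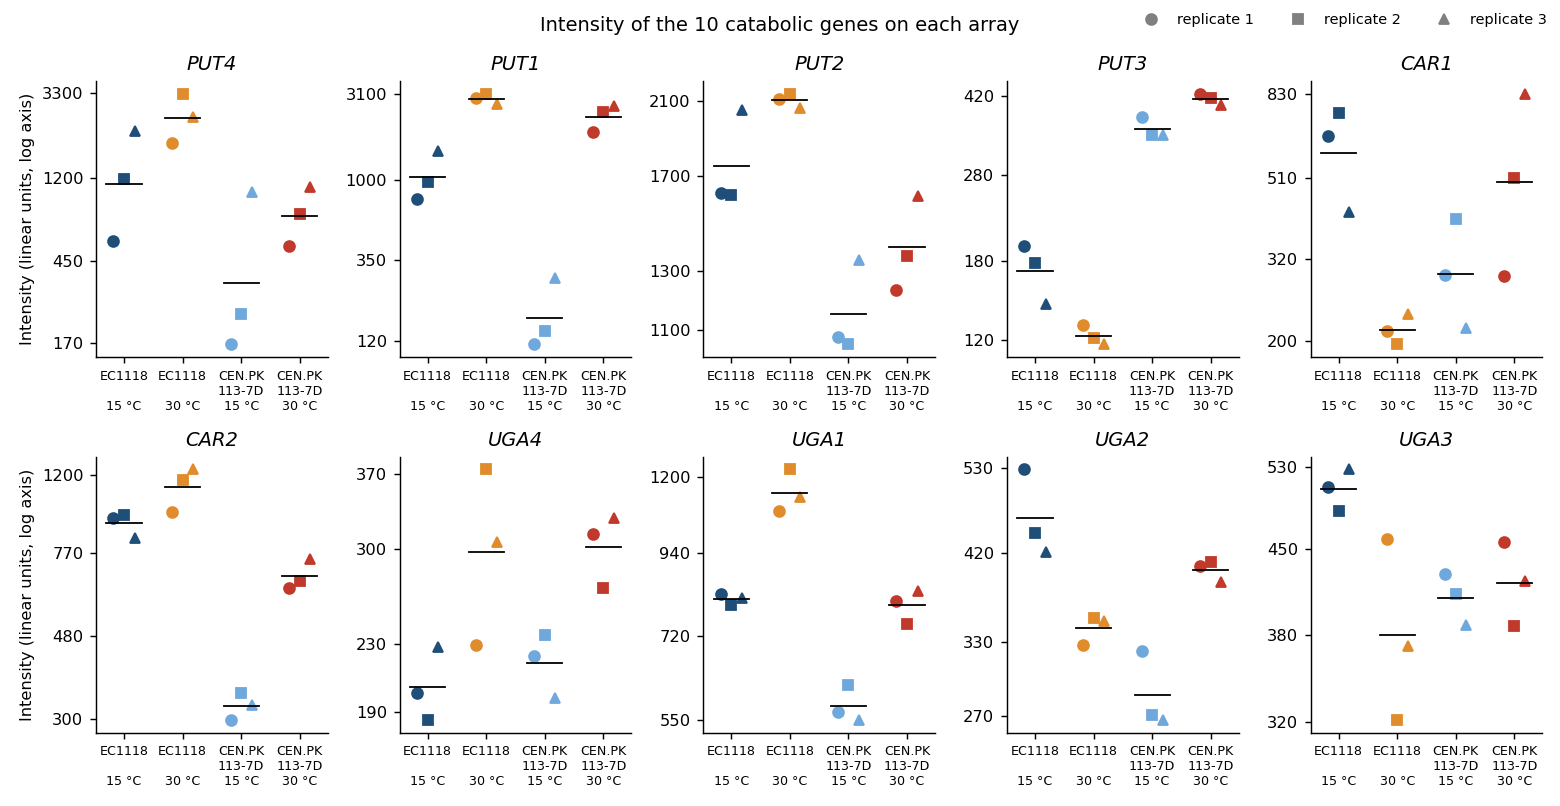
Intensity (linear units on a log axis, with a scale of its own for each gene) of the 10 genes on the 12 arrays. Symbols are replicates 1, 2 and 3, and the line is the mean of the log2 values of a group. PUT1 is lowest in CEN.PK113-7D at 15 °C (115 to 276), CAR1 in EC1118 at 30 °C (196 to 233).

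The first question was how the 10 genes differed between 15 °C and 30 °C within each strain. In EC1118, 8 of the 10 genes passed an adjusted p of 0.05 (limma with Benjamini-Hochberg adjustment over all genes), against 54.2% of all genes. Of these, 4 were higher at 15 °C (24.2% of all genes) and 4 lower (30.0% of all genes). CAR1, PUT3, UGA2 and UGA3 rose, while PUT1, CAR2, UGA1 and UGA4 fell. In CEN.PK113-7D 5 of the 10 passed (58.5% of all genes), 5 of them lower at 15 °C (36.6% of all genes) and 0 higher (21.8% of all genes). Those that fell were PUT1, CAR2, UGA1, UGA2 and UGA4. The median log2 change over the 10 genes was -0.28 in EC1118, where that of all genes was -0.04, and -0.48 in CEN.PK113-7D, where that of all genes was -0.11. The arrays of the 2 temperatures did not overlap for 9 of the 10 genes in EC1118 (62.7% of all genes) and for 6 in CEN.PK113-7D (62.8% of all genes). In RNA from whole cultures, fewer cells that express a gene and less RNA per cell cannot be told apart. The median of all genes moves with the scaling of the arrays. With quantile normalization it was 0.01 in CEN.PK113-7D and 0.02 in EC1118. Changes relative to the deposited median are added below in CEN.PK113-7D alone, for those of the 10 genes with a log2 change under 0.5 in size there. A change of at least 2-fold together with the adjusted p was met by 2 of the 10 genes in EC1118 (7.60% of all genes) and by 2 in CEN.PK113-7D (8.75% of all genes).

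**Figure D2:**
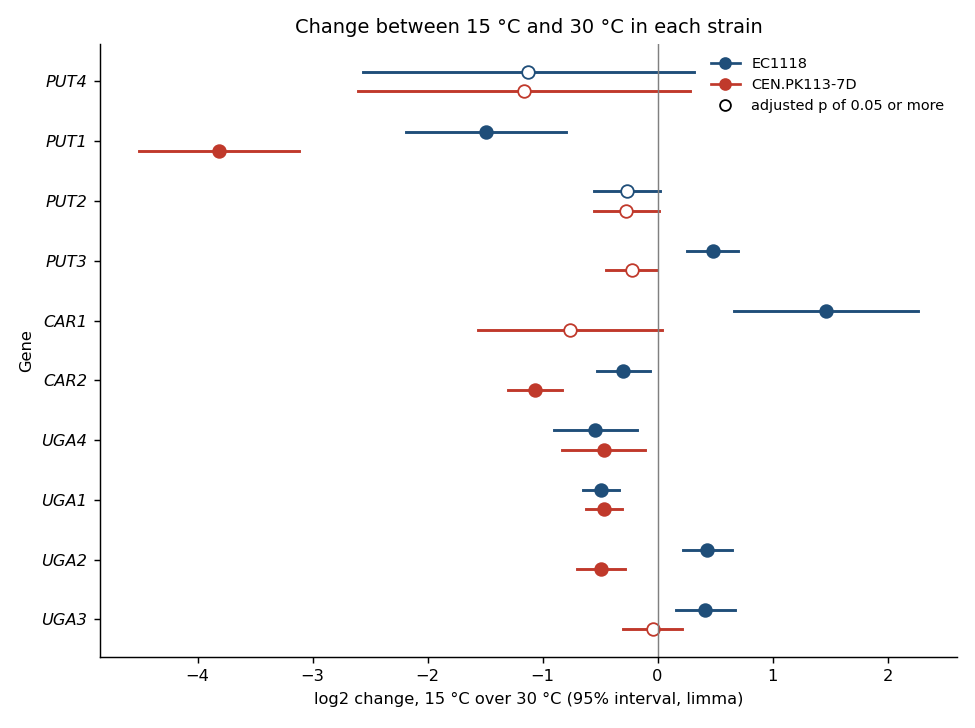
The log2 change at 15 °C over 30 °C of each gene in EC1118 (upper, blue) and CEN.PK113-7D (lower, red), with 95% intervals from limma. Filled points have an adjusted p under 0.05. PUT1 lies at -1.49 in EC1118 and -3.81 in CEN.PK113-7D, and CAR1 at 1.47 and -0.76.

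The temperature effect itself differed between the strains for 5 of the 10 genes, against 13.0% of all genes, by the interaction term of the same model. For PUT1, PUT3, CAR1, CAR2 and UGA2 the log2 change at 15 °C over 30 °C was more positive, or less negative, in EC1118 than in CEN.PK113-7D. All 5 differences therefore ran one way (8.68% of all genes passed in that direction, and 4.37% in the other, with 0 of the 10 genes there). The split over all genes depended on the scaling, with 473 in that direction and 238 in the other as deposited, 422 and 304 after centring, and 371 and 358 after quantile normalization. Of the 5, PUT1 and CAR1 had differences of at least 2-fold, 2 of the 10 genes against 2.72% of all genes. The 5 calls were also made with the arrays numbered 3 at 15 °C left out, and 5 or 6 of the 10 genes passed without any single array. The background moved more, with 468 genes past the threshold without EC1118 replicate 1 at 15 °C and 711 with all arrays.

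PUT4 encodes the high-affinity proline permease of the plasma membrane, which also carries GABA. It read 572, 1194 and 2090 in EC1118 at 15 °C (replicates 1, 2 and 3), against 1824, 3272 and 2464 at 30 °C. In CEN.PK113-7D it read 167, 241 and 1019.6 at 15 °C, against 540, 780 and 1084 at 30 °C. The highest 15 °C array overlapped the 30 °C arrays in both strains. Its log2 change at 15 °C was -1.12 ± 0.65 (limma standard error, as for all log2 changes here; adjusted p = 0.168) in EC1118 and -1.16 ± 0.65 (adjusted p = 0.150) in CEN.PK113-7D, and neither passed. Without the arrays numbered 3 at 15 °C the log2 change was -1.57 in EC1118 (adjusted p = 0.0108) and -1.94 in CEN.PK113-7D (adjusted p = 0.00345). Without CEN.PK113-7D replicate 3 at 15 °C alone, it was -1.94 in that strain (adjusted p = 0.00865). The spread of PUT4 within groups, 0.90 on the log2 scale pooled over the groups, exceeded that of 99.7% of genes, where the median gene had 0.13.

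PUT4 was higher in EC1118 than in CEN.PK113-7D by 1.71 ± 0.65 on the log2 scale at 15 °C and by 1.67 ± 0.65 at 30 °C. Neither passed in the main fit, of all groups and without a replicate block (adjusted p = 0.0679 and 0.0622). At 30 °C the lowest EC1118 array (1824) lay above the highest CEN.PK113-7D array (1084). With the equally numbered arrays of the strains paired at 15 °C, a fit of those 2 groups with the replicate number as a block gave adjusted p = 0.0167, and the block in the fit of all groups gave adjusted p = 0.0128. Without both arrays numbered 3 at 15 °C the difference at 15 °C was 2.04 (adjusted p = 0.0112) and that at 30 °C passed (adjusted p = 0.00594). At 15 °C it was 1.18 without CEN.PK113-7D replicate 1 and 2.49 without CEN.PK113-7D replicate 3. At 30 °C the call was gained with arrays centred on their medians (adjusted p = 0.0463) and with quantile normalization (adjusted p = 0.0482). The interaction was 0.04 ± 0.92, with a 95% interval from -2.00 to 2.08, so a difference of the temperature effects of several fold in either direction is within its error.

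PUT1 encodes the mitochondrial proline oxidase, the first enzyme of proline degradation. In EC1118 it read 781, 978 and 1475 at 15 °C, against 2927, 3119 and 2735 at 30 °C. In CEN.PK113-7D it read 115, 138 and 276 at 15 °C, against 1890, 2438 and 2657 at 30 °C. The temperatures did not overlap in either strain, and at 15 °C all EC1118 arrays lay above all CEN.PK113-7D arrays. The log2 change was -1.49 ± 0.31 in EC1118 (2.81-fold lower at 15 °C, adjusted p = 0.00250) and -3.81 ± 0.31 in CEN.PK113-7D (14.1-fold lower, adjusted p = 7.07e-06). By size of log2 change, PUT1 ranked 145 among the 5449 genes in EC1118 and 7 in CEN.PK113-7D. Without the arrays numbered 3 at 15 °C the log2 change was -1.74 in EC1118 and -4.19 in CEN.PK113-7D. The interaction for PUT1 was 2.32 ± 0.44 (95% interval 1.34 to 3.30, adjusted p = 0.00822). The strains differed by 2.67 ± 0.31 at 15 °C (6.35-fold higher in EC1118, adjusted p = 0.000122) and by 0.34 ± 0.31 at 30 °C (adjusted p = 0.406, 95% interval -0.35 to 1.04), although the lowest EC1118 array at 30 °C (2735) lay just above the highest CEN.PK113-7D array (2657).

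PUT2, which encodes the mitochondrial dehydrogenase that completes the conversion of proline to glutamate, moved much less. It read 1612 to 2049 in EC1118 at 15 °C, against 2059 to 2144 at 30 °C. In CEN.PK113-7D it read 1057 to 1340 at 15 °C, against 1231 to 1604 at 30 °C. The temperatures overlapped in CEN.PK113-7D and were just apart in EC1118. The log2 change was -0.27 ± 0.13 in EC1118 (adjusted p = 0.104) and -0.27 ± 0.13 in CEN.PK113-7D (adjusted p = 0.0958, -0.16 relative to all genes). Without the arrays numbered 3 at 15 °C it was -0.38 in each strain and passed in both (adjusted p = 0.0117 and 0.0109). The 2 strains differed in PUT2 at either temperature, by 0.60 ± 0.13 on the log2 scale at 15 °C (1.52-fold higher in EC1118, adjusted p = 0.00542) and by 0.60 ± 0.13 at 30 °C (1.51-fold, adjusted p = 0.00410). Its interaction was 0.00 ± 0.18, with a 95% interval from -0.40 to 0.41.

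PUT3 encodes the zinc-cluster activator that binds upstream of PUT1 and PUT2 and responds to proline. It read 194, 178 and 144 in EC1118 at 15 °C, against 129, 121 and 117 at 30 °C. In CEN.PK113-7D it read 377, 343 and 343 at 15 °C, against 425, 416 and 400 at 30 °C. Unlike the other proline genes, PUT3 was lower in EC1118 than in CEN.PK113-7D on every array at both temperatures. The strain difference was -1.05 ± 0.10 at 15 °C (2.07-fold lower in EC1118, adjusted p = 2.64e-05) and -1.76 ± 0.10 at 30 °C (3.38-fold lower, adjusted p = 3.81e-07). Between temperatures PUT3 rose at 15 °C in EC1118 (log2 change 0.48 ± 0.10, adjusted p = 0.00227), and in CEN.PK113-7D its log2 change was -0.22 ± 0.10 (adjusted p = 0.0746, -0.11 relative to all genes), with no overlap of the arrays in either strain. Without both arrays numbered 3 at 15 °C the change in CEN.PK113-7D was -0.20 and passed (adjusted p = 0.0421). The interaction was 0.70 ± 0.14 (adjusted p = 0.00995). Differences in gene sequence between the strains could affect a probe set designed on one reference sequence, and their part in any strain difference here was not tested.

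**Figure D3:**
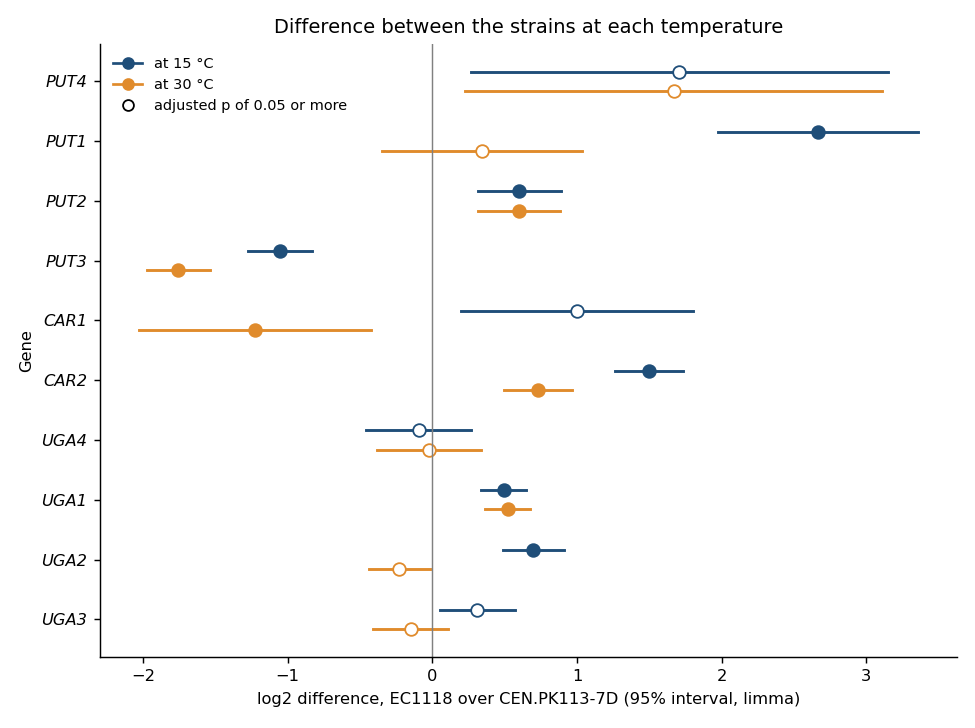
The log2 difference of EC1118 over CEN.PK113-7D for each gene at 15 °C (upper, dark blue) and 30 °C (lower, orange), with 95% intervals from limma. Filled points have an adjusted p under 0.05. PUT3 is lower in EC1118 at both temperatures (-1.05 and -1.76), and CAR2 is higher at both (1.50 and 0.73).

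CAR1 encodes arginase, which splits arginine into ornithine and urea. In EC1118 it read 651, 745 and 420 at 15 °C, against 211, 196 and 233 at 30 °C, without overlap. In CEN.PK113-7D it read 293, 403 and 215 at 15 °C, against 290, 511 and 831 at 30 °C, and the arrays overlapped. The 30 °C values of CEN.PK113-7D differed 2.86-fold between the lowest and the highest array, those of EC1118 only 1.19-fold. The log2 change at 15 °C was 1.47 ± 0.36 in EC1118 (2.77-fold higher, adjusted p = 0.00600), and it was -0.76 ± 0.36 in CEN.PK113-7D (adjusted p = 0.0940). Without CEN.PK113-7D replicate 1 at 30 °C the change in that strain was -1.15 (adjusted p = 0.0127), and without replicate 3 it was -0.39 (adjusted p = 0.338).

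The interaction for CAR1 was 2.23 ± 0.51 (95% interval 1.09 to 3.36, adjusted p = 0.0186), and it passed without any single array (adjusted p of at most 0.0477). CAR1 was lower in EC1118 at 30 °C, by 2.34-fold (log2 difference -1.23 ± 0.36, adjusted p = 0.0202). That call was lost without CEN.PK113-7D replicate 2 (adjusted p = 0.0552) or 3 (adjusted p = 0.0705) or EC1118 replicate 2 (adjusted p = 0.0588) at 30 °C. At 15 °C the difference had the other sign, 1.002 ± 0.36, with all EC1118 arrays above all CEN.PK113-7D arrays, and missed the threshold (adjusted p = 0.0557). With the equally numbered arrays at 15 °C paired in a fit of those 2 groups, it passed (adjusted p = 0.00380), and in the block fit of all groups it did not (adjusted p = 0.0706).

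CAR2 encodes ornithine aminotransferase, the next enzyme of arginine breakdown, and fell at 15 °C in both strains. It read 939, 959 and 841 in EC1118 at 15 °C, against 971, 1166 and 1239 at 30 °C. In CEN.PK113-7D it read 299, 347 and 324 at 15 °C, against 631, 657 and 743 at 30 °C. No groups compared overlapped, and every EC1118 array lay above every CEN.PK113-7D array. The log2 change at 15 °C was -1.07 ± 0.11 in CEN.PK113-7D (2.09-fold lower, adjusted p = 2.18e-05) and -0.30 ± 0.11 in EC1118 (1.23-fold lower, adjusted p = 0.0349). The EC1118 call was lost with arrays centred on their medians (adjusted p = 0.114) and with quantile normalization (adjusted p = 0.0995). So it was in a fit of the 2 EC1118 groups alone (adjusted p = 0.066) and without the arrays numbered 3 at 15 °C (adjusted p = 0.125). It was also lost without EC1118 replicate 1 (adjusted p = 0.0592) or 3 (0.111) at 15 °C, or replicate 2 (0.100) or 3 (0.129) at 30 °C. CAR2 was higher in EC1118 by 1.50 ± 0.11 on the log2 scale at 15 °C (2.82-fold, adjusted p = 2.65e-06) and by 0.73 ± 0.11 at 30 °C (1.66-fold, adjusted p = 0.000361). The interaction was 0.77 ± 0.15 (adjusted p = 0.00888).

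UGA4 encodes the GABA permease. It read 186 to 228 in EC1118 at 15 °C, against 229 to 374 at 30 °C. In CEN.PK113-7D it read 198 to 236 at 15 °C, against 269 to 327 at 30 °C. It was lower at 15 °C in both strains, with a log2 change of -0.54 ± 0.16 in EC1118 (1.46-fold, adjusted p = 0.0164) and -0.47 ± 0.16 in CEN.PK113-7D (1.38-fold, adjusted p = 0.0297, -0.36 relative to all genes). The call in CEN.PK113-7D was lost with centred arrays (adjusted p = 0.0632), with quantile normalization (0.0688), without both arrays numbered 3 at 15 °C (0.0921), and on leaving out, in that strain, replicate 1 (0.0577) or 3 (0.0891) at 15 °C or replicate 1 (0.0759) or 3 (0.0926) at 30 °C. The call in EC1118 was lost in a fit of its 2 groups alone (adjusted p = 0.0599) and without EC1118 replicate 2 at 15 °C (0.0605) or at 30 °C (0.0608). The strain differences were -0.10 ± 0.16 at 15 °C (95% interval -0.46 to 0.26) and -0.02 ± 0.16 at 30 °C (95% interval -0.38 to 0.34), neither of which passed.

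UGA1, the GABA transaminase gene, was the steadiest of the 10, with a spread within groups of 0.08 on the log2 scale that exceeded that of 13.0% of genes. It read 795 to 823 in EC1118 at 15 °C, against 1075 to 1229 at 30 °C. In CEN.PK113-7D it read 550 to 615 at 15 °C, against 748 to 833 at 30 °C. It fell at 15 °C by 0.49 ± 0.07 on the log2 scale in EC1118 (1.41-fold, adjusted p = 0.000245) and by 0.46 ± 0.07 in CEN.PK113-7D (1.38-fold, adjusted p = 0.000301, -0.35 relative to all genes). The interaction was -0.03 ± 0.10 with a 95% interval from -0.25 to 0.19. UGA1 was higher in EC1118 by 0.49 ± 0.07 at 15 °C (adjusted p = 0.000463) and by 0.52 ± 0.07 at 30 °C (adjusted p = 0.000232).

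UGA2 encodes succinate semialdehyde dehydrogenase, which completes GABA breakdown, and its temperature change had opposite signs in the strains. In EC1118 it read 528, 445 and 422 at 15 °C, against 327, 352 and 349 at 30 °C. In CEN.PK113-7D it read 322, 271 and 267 at 15 °C, against 406, 410 and 388 at 30 °C. All 15 °C arrays lay above the 30 °C arrays in EC1118, and all lay below them in CEN.PK113-7D. UGA2 rose 1.35-fold at 15 °C in EC1118 (log2 change 0.43 ± 0.10, adjusted p = 0.00335) and fell 1.41-fold in CEN.PK113-7D (-0.49 ± 0.10, adjusted p = 0.00140, -0.38 relative to all genes). The interaction of 0.93 ± 0.14 had the smallest adjusted p of the 10 genes (0.00268), and its 95% interval ran from 0.63 to 1.23. At 15 °C UGA2 was 1.62-fold higher in EC1118 (log2 difference 0.70 ± 0.10, adjusted p = 0.000361). At 30 °C the difference was -0.23 ± 0.10 and missed the threshold (adjusted p = 0.0798), with no overlap of the arrays.

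UGA3 encodes the zinc-cluster activator of the UGA genes. It read 485 to 527 in EC1118 at 15 °C, against 321 to 459 at 30 °C. In CEN.PK113-7D it read 387 to 429 at 15 °C, against 387 to 457 at 30 °C. UGA3 rose at 15 °C in EC1118 (log2 change 0.42 ± 0.12, 1.33-fold, adjusted p = 0.0120), and in CEN.PK113-7D its log2 change was -0.04 ± 0.12 (adjusted p = 0.777), or 0.07 relative to all genes, and its sign turned with the scaling. The interaction of 0.46 ± 0.16 did not pass (adjusted p = 0.0963). Without EC1118 replicate 1 at 30 °C the interaction was 0.59 and passed (adjusted p = 0.018). Of the strain differences, 0.31 ± 0.12 at 15 °C missed the threshold in the main fit (adjusted p = 0.0662), and that at 30 °C was -0.15 ± 0.12 (adjusted p = 0.330). Without EC1118 replicate 1 at 30 °C the difference at 30 °C was -0.29 and passed (adjusted p = 0.0405). The difference at 15 °C passed in a fit of those 2 groups alone, both unpaired (adjusted p = 0.0242) and with equally numbered arrays paired (adjusted p = 0.0359). It also passed in the block fit of all groups (adjusted p = 0.0337).

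Between the strains, 6 of the 10 genes differed at 15 °C, against 33.1% of all genes, and 5 at 30 °C, against 41.4% of all genes. At 15 °C the block by replicate number gave 8 of the 10 (1910 of the 5449 genes), and the paired fit of the 15 °C groups alone gave 9 (1948 genes). At 15 °C, 5 were higher in EC1118 (19.0% of all genes) and 1 lower (14.1% of all genes). At 30 °C, 3 were higher (21.0% of all genes) and 2 lower (20.4% of all genes). PUT2, CAR2 and UGA1 were higher in EC1118 at both temperatures, PUT1 and UGA2 were called at 15 °C alone, and PUT3 was lower at both. The median log2 difference of the 10 genes was 0.65 at 15 °C, where that of all genes was 0.05, and 0.16 at 30 °C, where that of all genes was 0.01. The arrays of the strains did not overlap for 8 of the 10 genes at 15 °C (44.9% of all genes) and for 8 at 30 °C (54.9% of all genes). A called difference of at least 2-fold was seen for 3 genes at 15 °C (5.85% of all genes) and for 2 at 30 °C (7.29% of all genes). The comparisons at one temperature share their arrays with the comparisons within a strain.

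Within the 15 °C groups, some of the 10 genes deviated in the same direction in both strains and others did not. In replicate 3, PUT4, PUT1 and PUT2 were the highest and CAR1 and UGA2 the lowest of the 3 arrays in EC1118 and also in CEN.PK113-7D. PUT4 in replicate 3 lay above its group mean by 0.89 in EC1118 and by 1.56 in CEN.PK113-7D on the log2 scale, and PUT1 by 0.50 in EC1118 and 0.75 in CEN.PK113-7D. CAR1 in replicate 3 lay at -0.49 in EC1118 and -0.45 in CEN.PK113-7D, and UGA2 at -0.13 in EC1118 and -0.097 in CEN.PK113-7D. UGA4 and UGA3 went opposite ways, highest in replicate 3 in EC1118 (0.16 and 0.057) and lowest there in CEN.PK113-7D (-0.14 and -0.078). Of the 10 genes, 5 were highest and 4 lowest in replicate 3 in EC1118, and 3 were highest and 5 lowest in CEN.PK113-7D. The part of a shared condition of these cultures in this pattern was not tested.

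**Figure D4:**
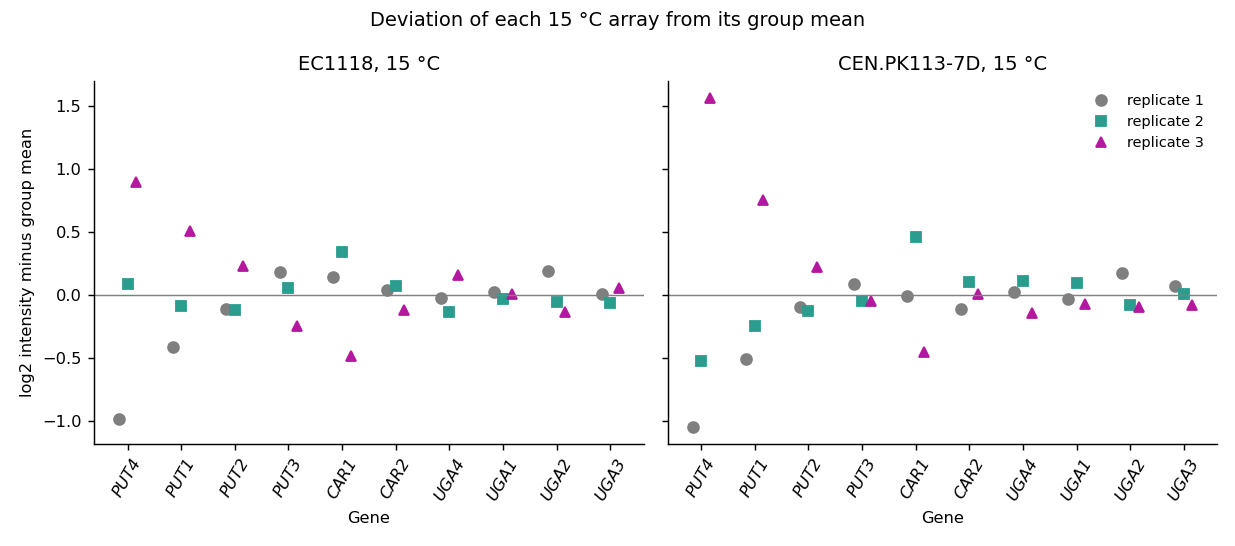
Deviation of each 15 °C array from the mean log2 intensity of its group for the 10 genes, with EC1118 on the left and CEN.PK113-7D on the right. Triangles are replicate 3, which lies highest for PUT4 (0.89 and 1.56) and lowest for CAR1 (-0.49 and -0.45) in both strains.

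Genes around these pathways were described through 8 lists, of which 40 genes were measured. In EC1118, 7 of the 40 were higher at 15 °C (24.2% of all genes) and 18 lower (30.0% of all genes). In CEN.PK113-7D 6 were higher (21.8% of all genes) and 21 lower (36.6% of all genes). Their median log2 change was -0.25 in EC1118, where that of all genes was -0.04, and -0.27 in CEN.PK113-7D, where that of all genes was -0.11. The interaction passed for 5 of the 40 in the positive direction (8.68% of all genes) and 3 in the negative (4.37% of all genes).

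**Figure D5:**
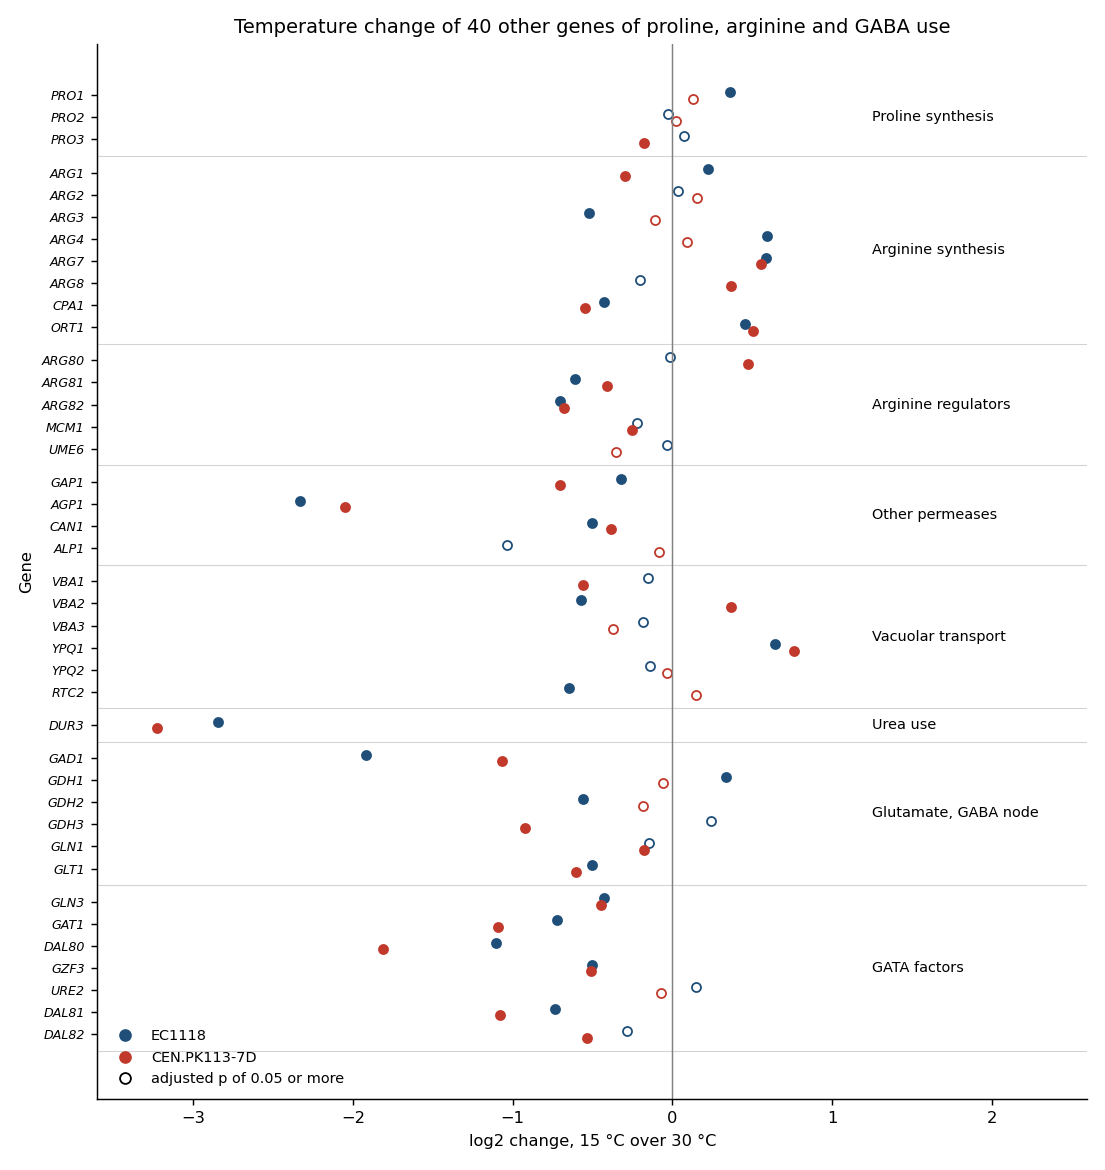
The log2 change at 15 °C over 30 °C of 40 further genes in 8 lists, for EC1118 (blue) and CEN.PK113-7D (red). Filled points have an adjusted p under 0.05. The permease genes DUR3 (-2.84 in EC1118 and -3.22 in CEN.PK113-7D) and AGP1 (-2.33 and -2.05) lie farthest to the left.

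Of the GATA factors and their co-regulators, 5 of 7 fell at 15 °C in EC1118 (30.0% of all genes) and 6 of 7 in CEN.PK113-7D (36.6% of all genes), with 0 higher in either. GAT1, an activator of genes under nitrogen catabolite repression, had a log2 change of -0.72 ± 0.09 in EC1118 (adjusted p = 8.64e-05) and -1.09 ± 0.09 in CEN.PK113-7D (adjusted p = 5.55e-06). The GATA repressor DAL80 fell by 1.11 ± 0.21 in EC1118 and by 1.81 ± 0.21 in CEN.PK113-7D on the log2 scale, and its interaction did not pass (0.71 ± 0.29, adjusted p = 0.142). DAL81, the co-activator that works with UGA3 on the UGA genes, was chosen after its values were seen. It fell by 0.73 ± 0.18 in EC1118 and by 1.08 ± 0.18 in CEN.PK113-7D, and its interaction did not pass (0.35 ± 0.25, adjusted p = 0.408). Of the UGA genes, UGA1 and UGA4 also fell in both strains. UGA2 rose in EC1118 and fell in CEN.PK113-7D, and UGA3 was called in EC1118 alone, where it rose. A part of DAL81 in these changes was not tested. Between the strains GAT1 was lower in EC1118 by 0.35 ± 0.09 on the log2 scale at 15 °C and by 0.72 ± 0.09 at 30 °C. The call at 15 °C was lost without both arrays numbered 3 at 15 °C (-0.32, adjusted p = 0.0617). Its interaction of 0.37 ± 0.12 did not pass (adjusted p = 0.0731).

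Permeases other than the 10 genes also carry these amino acids. Of 4 measured, 3 fell at 15 °C in each strain (30.0% of all genes in EC1118 and 36.6% in CEN.PK113-7D) and 0 rose (24.2% and 21.8% of all genes). AGP1, a broad amino acid permease that accepts proline, fell by 2.33 ± 0.12 on the log2 scale in EC1118 and by 2.05 ± 0.12 in CEN.PK113-7D. GAP1, the general amino acid permease, fell by 0.32 ± 0.10 in EC1118 and by 0.70 ± 0.10 in CEN.PK113-7D. Its interaction did not pass (0.38 ± 0.14, adjusted p = 0.102), and its call in EC1118 was lost with centred arrays (adjusted p = 0.0531). CAN1, the arginine permease, fell by 0.50 ± 0.10 in EC1118 and by 0.39 ± 0.10 in CEN.PK113-7D, where quantile normalization ended the call (adjusted p = 0.131). CAN1 was higher in EC1118 at 15 °C (0.64 ± 0.10) and at 30 °C (0.75 ± 0.10). ALP1, a relative of CAN1, was at the lower limit of 10 on all 3 EC1118 arrays at 15 °C and read 21.4, 43.2 and 126 in CEN.PK113-7D, at least 4.88-fold lower in EC1118 (adjusted p = 0.00576). That bound rests in part on CEN.PK113-7D replicate 3, and without both arrays numbered 3 at 15 °C the log2 difference of ALP1 was -1.605 (adjusted p = 0.0108), against -2.29 with them. DUR3, the permease for urea, which arginase releases, fell by 2.84 ± 0.12 in EC1118 and by 3.22 ± 0.12 in CEN.PK113-7D.

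GAD1 encodes glutamate decarboxylase, which makes GABA, and was lower at 15 °C in both strains. It read 323, 427 and 322 in EC1118 at 15 °C, against 896, 1978 and 1360 at 30 °C, and 165, 178 and 205 in CEN.PK113-7D at 15 °C, against 351, 354 and 444 at 30 °C. Its log2 change was -1.92 ± 0.24 in EC1118 (adjusted p = 0.000127) and -1.06 ± 0.24 in CEN.PK113-7D (adjusted p = 0.00376). The interaction of -0.86 ± 0.35 did not pass (adjusted p = 0.136). GAD1 was higher in EC1118 by 0.96 ± 0.24 at 15 °C and 1.82 ± 0.24 at 30 °C. GLT1, glutamate synthase, fell by 0.50 ± 0.06 in EC1118 and by 0.60 ± 0.06 in CEN.PK113-7D. For GDH1, the NADPH-linked glutamate dehydrogenase, and GDH3, its close relative, the interaction was positive (0.39 ± 0.07, adjusted p = 0.00799, and 1.17 ± 0.27, adjusted p = 0.0194), and sequence shared by the pair could affect both probe sets. In all, of 6 genes of this node, 1 rose (24.2% of all genes) and 3 fell (30.0%) in EC1118, and 0 rose (21.8%) and 4 fell (36.6%) in CEN.PK113-7D.

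Genes that make proline and arginine were listed apart from those that degrade them. Of 3 proline synthesis genes, 1 rose and 0 fell at 15 °C in EC1118 (PRO1, glutamate kinase, by 0.36 ± 0.08 on the log2 scale), and 0 rose and 1 fell in CEN.PK113-7D (PRO3, which makes proline in its last step, by 0.18 ± 0.06), against the same shares of all genes as for the other lists (24.2% higher and 30.0% lower in EC1118, 21.8% and 36.6% in CEN.PK113-7D). The PRO3 call was lost with centred arrays (adjusted p = 0.425) and with quantile normalization (0.539). It was also lost on leaving out any single array of CEN.PK113-7D (adjusted p from 0.0518 to 0.0967). Of 8 arginine synthesis genes, 4 rose (24.2% of all genes) and 2 fell (30.0%) in EC1118, and 3 rose (21.8%) and 2 fell (36.6%) in CEN.PK113-7D. ARG7, an ornithine-forming acetyltransferase, rose by 0.59 ± 0.08 in EC1118 and 0.55 ± 0.08 in CEN.PK113-7D, and ORT1, the mitochondrial ornithine exporter, by 0.46 ± 0.08 and 0.51 ± 0.08. ARG4, argininosuccinate lyase, rose by 0.60 ± 0.08 in EC1118, and its interaction was 0.50 ± 0.12 (adjusted p = 0.0208). ARG3, ornithine carbamoyltransferase, was lower in EC1118 than in CEN.PK113-7D by 0.94 ± 0.10 at 15 °C and 0.52 ± 0.10 at 30 °C.

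The arginine-responsive regulators ARG80, ARG81 and ARG82, which with MCM1 repress arginine synthesis genes and activate CAR1 and CAR2, were listed with UME6, a repressor of CAR1. At 15 °C 0 of these 5 rose (24.2% of all genes) and 2 fell (30.0%) in EC1118, and 1 rose (21.8%) and 3 fell (36.6%) in CEN.PK113-7D. ARG81 fell by 0.61 ± 0.09 in EC1118 and by 0.41 ± 0.09 in CEN.PK113-7D. ARG82, an inositol polyphosphate kinase, fell by 0.70 ± 0.12 in EC1118 and by 0.68 ± 0.12 in CEN.PK113-7D. ARG80 was higher in EC1118 at 30 °C by 0.80 ± 0.11. Its interaction of -0.49 ± 0.15 did not pass (adjusted p = 0.0597). For 6 vacuolar transporters of basic amino acids, the counts at 15 °C were 1 higher (24.2% of all genes) and 2 lower (30.0%) in EC1118, and 2 higher (21.8%) and 1 lower (36.6%) in CEN.PK113-7D. YPQ1 rose in both strains (0.64 ± 0.08 and 0.76 ± 0.08), and VBA2 had opposite signs, -0.57 ± 0.10 in EC1118 and 0.37 ± 0.10 in CEN.PK113-7D, with an interaction of -0.94 ± 0.14 (adjusted p = 0.00292).

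The genes most alike in pattern were taken for the 5 members whose group means spanned at least 1 on the log2 scale, as Pearson correlations of log2 intensity over the 12 arrays. These arrays form 4 groups and share strains and temperatures, so the values describe the pattern and carry no test. PUT1 was most like ISF1 (r = 0.990), COX5B (0.987), the hypoxic form of a cytochrome c oxidase subunit, and VMA13 (0.984), a subunit of the vacuolar proton pump. PUT3 was most like YIR042C (0.985), YDR261C-D (0.985) and MID2 (0.984), a cell wall stress sensor. PUT4 was most like BIT2 (0.965), RFS1 (0.959) and ECM14 (0.949). CAR2 was most like FMP40 (0.981), GPD1 (0.972), an enzyme of glycerol synthesis, and GPI12 (0.972). CAR1 had lower values, with MTM1 at 0.841, CIS3 at 0.817 and SHE1 at 0.813.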

How the data were processed

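RNA of 12 chemostat cultures, 3 in each of 4 groups, was measured on Affymetrix Yeast Genome 2.0 arrays with a one-cycle labelling kit, per the labels' protocols. The authors deposited 1 linear intensity per probe set and array, used here as deposited. How probe sets were summarised and arrays normalized was not given in the sources used here. No intensity fell under 10, which was also each array's 1st percentile and held 1.90% to 3.31% of probe sets, so it served as the floor.

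The platform annotation gave 1 gene for 5498 of 5900 probe sets, and 402 were unnamed here. The RefSeq gene table (R64) updated 12 symbols, and keeping the brightest probe set per gene left 5449 genes. The model for log2 intensity came from limma 3.58.1 (R 4.3.3, lmFit and eBayes, 1 coefficient per group, no block, 8 residual and 2.22 prior degrees of freedom). P-values are two-sided, with Benjamini-Hochberg adjustment over all genes and a threshold of 0.05. Folds come from means of log2 values. Comparisons were 15 °C over 30 °C in each strain, EC1118 over CEN.PK113-7D at 15 °C and at 30 °C, and the interaction, which is the temperature effect in EC1118 minus that in CEN.PK113-7D.

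The 10 genes and the pathway lists were chosen with earlier results of these data known. All 10 genes are described, with up to 3 called genes per pathway list and comparison, by the smallest adjusted p, from which a selection is given, and the 3 genes most alike in pattern. The alternatives were a replicate block, quantile normalization, median centring, a fit of only the 2 groups compared, a filter on the dimmest 25% of probe sets, eBayes with its trend and robust options, a pseudocount of 50, all probe sets as features, and each array left out. Omission of both arrays numbered 3 at 15 °C and the paired fit of the 15 °C groups were added after seeing the data. At 15 °C all pairs of equally numbered arrays had deviations that correlated at over 0.1, so the strains were also fitted as paired there. Values for the strains at 15 °C are from the main fit, which ignores this pairing, unless a block or paired fit is named. The pairing rests on the data, not the labels, and its condition did not hold in the other comparisons. Before use, the fit was run on simulated data with independent noise on each array, unlike the shared deviations seen at 15 °C. It recovered 16 of 50 simulated interactions of 0.5 on the log2 scale and 46 of 50 of size 1.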

Additional observations from a re-analysis of the deposited data

Results flagged for a closer look

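For 5 of the 10 genes the effect of 15 °C over 30 °C differed between EC1118 and CEN.PK113-7D by the interaction term of the limma model. The difference of log2 changes, EC1118 minus CEN.PK113-7D, was 2.32 for PUT1, 0.70 for PUT3, 2.23 for CAR1, 0.77 for CAR2 and 0.93 for UGA2. PUT1 and CAR2 fell at 15 °C in both strains and fell less in EC1118. The call of the CAR2 fall in EC1118 was lost with centred arrays, with quantile normalization and in several other alternatives. UGA2 rose in EC1118 and fell in CEN.PK113-7D, while CAR1 and PUT3 rose in EC1118 and had changes of negative sign in CEN.PK113-7D that missed the threshold.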

How the results depend on the processing

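Each log2 change of the 10 genes in the 5 comparisons was recomputed under the alternatives, which gave 1050 values. Of these, 955 kept their direction and their side of the threshold, 46 gained a call, 21 lost one and 28 changed sign. No sign change touched a result called in the main analysis. The causes of the changes below were not tested. For UGA3 in CEN.PK113-7D, the log2 change at 15 °C was 0.0934 with quantile normalization and 0.0723 with centred arrays, and ran from -0.10 to 0.0157 as single arrays were left out. For the interaction, PUT2 gave -0.16 with quantile normalization, -0.0340 with centred arrays, -0.00063 with a pseudocount of 50 and -0.0028 without both arrays numbered 3 at 15 °C, and PUT4 gave -0.0713 with quantile normalization and -0.0671 with a pseudocount of 50. With single arrays left out, the interaction ran from -0.11 to 0.11 for PUT2, -0.49 to 0.82 for PUT4, -0.0729 to 0.0241 for UGA1 and -0.26 to 0.0927 for UGA4, and the UGA4 strain difference at 30 °C from -0.19 to 0.17. The number of genes past the threshold in the interaction ran from 468 to 801 with single arrays left out.

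With the replicate number as a block, 8 of the 10 genes passed for temperature in CEN.PK113-7D (3301 of all 5449 genes), against 5 without it (3186), though the numbers did not meet the condition for pairing there (r = 0.373, -0.240 and 0.163). The block gave 10 for temperature in EC1118 (3097 genes), 8 for the strains at 15 °C (1910), 6 at 30 °C (2401) and 5 for the interaction (784). The paired fit of the 15 °C groups alone gave 9 (1948). Without both arrays numbered 3 at 15 °C the counts were 9 for temperature in EC1118 (3031), 7 in CEN.PK113-7D (3275), 7 for the strains at 15 °C (1400), 6 at 30 °C (2560) and 5 for the interaction (767). Quantile normalization and centring moved the split of all genes for temperature in CEN.PK113-7D to 1654 higher and 1525 lower and to 1577 and 1576, against 1189 and 1997 as deposited, and in EC1118 to 1575 and 1413 and to 1626 and 1393, against 1320 and 1633. The spread limits PUT4 and CAR1 most, whose standard errors were 0.65 and 0.36 on the log2 scale.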

Other observations

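Genes that are known as specific to mating type alpha were listed as markers of the strains. In CEN.PK113-7D MF(ALPHA)1 read 505 to 2364 at 15 °C and 136 to 233 at 30 °C, and MF(ALPHA)2 read 159 to 967 at 15 °C and 14.4 to 20.2 at 30 °C. In EC1118 MF(ALPHA)1 read 72.6 to 246 at 15 °C and 338 to 394 at 30 °C, and MF(ALPHA)2 read 24.5 to 28.9 at 15 °C and 13.7 to 19.7 at 30 °C. STE3 read 85.1 to 129 at 15 °C and 70.8 to 87.7 at 30 °C in CEN.PK113-7D. In EC1118 it read 16.5 to 22.2 and 55.1 to 59.5. At 15 °C all of these genes were thus higher in CEN.PK113-7D, the strain known as mating type a. At 30 °C MF(ALPHA)1 was higher in EC1118, MF(ALPHA)2 overlapped and STE3 was higher in CEN.PK113-7D. The cause was not tested.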
